A study of Mus musculus with 9 samples.

Results

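The transcripts of 3 MEF2 transcription factor genes (Mef2a, Mef2c and Mef2d) and 4 class IIa histone deacetylase genes (Hdac4, Hdac5, Hdac7 and Hdac9) were followed in MA-10 cells, an established line from a mouse Leydig cell tumour in which cAMP drives steroid synthesis. The genes were chosen by name, as the factors and the corepressors that bind them, and each was read from the transcript cluster (called probe below) that carried its symbol alone, or from the brightest where there was more than 1. All 7 named genes had such a probe, out of 19938 genes measured. The cells were in serum-free medium for 1.5 h with 10 µM forskolin plus 1 mM AICAR (3 arrays), with 10 µM forskolin (3 arrays) or with the DMSO vehicle (3 arrays, called control). The control samples' titles speak of no treatment, but their treatment entry names DMSO. Forskolin raises cAMP by activating adenylyl cyclase, and cells convert AICAR to ZMP, which mimics AMP and activates AMPK. Every group is of the same tumour line, and AICAR was given only together with forskolin. The study's design asks how AMPK activation alters the transcripts of stimulated Leydig cells.

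MEF2 proteins are MADS-box factors that bind an AT-rich DNA element and are best known for switching on muscle, neuronal and immediate early genes. In Leydig cells they are known to act on the promoters of Star and Nr4a1. Class IIa histone deacetylases have little deacetylase activity of their own; they dock on MEF2 and bring in the Hdac3 corepressor complex. Salt-inducible kinases, calcium/calmodulin-dependent kinases, protein kinase D and AMPK phosphorylate them, upon which 14-3-3 proteins hold them in the cytoplasm. Protein kinase A, the kinase that cAMP activates, inhibits the salt-inducible kinases. The arrays measured transcript levels and neither phosphorylation nor location.

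The arrays were much alike, with medians between log2 values of 7.14 and 7.19, and their number limits the precision. The interquartile range was narrowest in forskolin+AICAR replicates 2 and 3 (3.35 and 3.34), against 3.42 to 3.48 on the other arrays. Transcripts of the labelled cell type were read from 10 measured steroidogenic genes, with control means between 8.58 (Star) and 12.69 (Nr0b1). The 28 measured markers of Sertoli, germ, macrophage, peritubular, endothelial and muscle cells had control means from 4.12 up to 9.88 (Sox9, Sertoli), 10.03 (Ckm, muscle) and 11.97 (Cdh5, endothelial), so the ranges of both sets overlapped. Levels of different probes are not comparable, and the label was therefore not tested by them. Averaged over these 28 markers, the arrays lay between 6.81 and 6.88 with forskolin+AICAR, between 6.81 and 6.84 with forskolin and between 6.79 and 6.82 in control. The labels do not say whether the replicates came from different cultures. The p-values therefore cover the spread among these 9 samples, which may be technical.

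Promoter sequence was searched for a strict form of the AT-rich MEF2 element and for the core of the cAMP response element, the site of CREB. The windows are those of RefSeq on GRCm38.p6, from 250 bases before to 50 after a transcript's start, and all 7 genes matched, with 13 windows. The MEF2 search was for CTA and TAG with 4 bases between them, each A or T, a pattern of 10 bases that reads the same on both strands. It was held by 0.557% of all 32851 windows, and by 1 window each of Mef2a and Hdac5. In 18 matched genes of the MEF2 target list used below, Hdac9 aside, it was found in Jun, Klf2 and Xirp2. Star, Egr3, Slc2a4, Xirp1, Gsta4, Srl and Tgm2 of that list had no window and were not searched. Other forms of the MEF2 element were not searched either, so a window without a match may still hold another form. The matches of Mef2a, Hdac5 and Jun are shown beside each other, from 50 bases before the start to 25 after it. Each stretch is written 5′ to 3′ with the match in capitals. The stretches are chr7:67372834-67372908, minus strand for Mef2a, chr11:102230148-102230222, minus strand for Hdac5 and chr4:95052198-95052272, minus strand for Jun.
Mef2a: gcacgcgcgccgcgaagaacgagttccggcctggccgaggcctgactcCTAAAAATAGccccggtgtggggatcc
Hdac5: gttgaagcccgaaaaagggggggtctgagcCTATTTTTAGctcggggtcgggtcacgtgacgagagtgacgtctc
Jun: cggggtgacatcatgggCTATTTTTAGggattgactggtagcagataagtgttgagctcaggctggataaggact
The matches began 2 bases before the start in Mef2a, 20 before it in Hdac5 and 33 before it in Jun. Hdac5 and Jun held the same 10 letters, which the match of Mef2a also gives when read on the opposite strand.

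The cAMP response element core TGACG, searched on both strands, was held by 20.8% of all windows, and by those of Hdac4 and Hdac5 among the 7 genes. The full element TGACGTCA, which contains the core on each strand, was held by 1.79% of all windows and by none of the 13. Hdac4 is shown as the deacetylase gene with 3 cores, beside Nr4a1, the MEF2 target with the largest forskolin rise, which had 4. The stretches run from 250 bases before the start to 25 after it, at chr1:92180317-92180591, minus strand for Hdac4 and chr15:101266596-101266870, plus strand for Nr4a1, with each core in capitals (CGTCA where it lies on the opposite strand).
Hdac4: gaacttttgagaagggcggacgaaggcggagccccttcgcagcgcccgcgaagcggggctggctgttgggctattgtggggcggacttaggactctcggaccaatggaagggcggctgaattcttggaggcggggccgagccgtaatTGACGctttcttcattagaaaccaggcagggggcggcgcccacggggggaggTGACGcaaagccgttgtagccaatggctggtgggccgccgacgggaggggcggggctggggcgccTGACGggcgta
Nr4a1: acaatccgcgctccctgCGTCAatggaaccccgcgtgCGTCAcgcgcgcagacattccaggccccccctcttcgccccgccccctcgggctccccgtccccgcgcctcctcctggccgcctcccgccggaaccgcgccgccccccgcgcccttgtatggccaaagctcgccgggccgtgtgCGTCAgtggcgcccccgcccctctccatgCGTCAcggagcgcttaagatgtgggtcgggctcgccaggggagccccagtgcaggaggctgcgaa
These matches describe letters in the windows and do not show that a factor binds there.

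Across the 7 genes the treatments moved the transcripts little. The 21 differences (7 genes in 3 comparisons) lay between −0.11 and 0.18 on the log2 scale, and their 95% intervals between −0.19 and 0.28, so that a change beyond 1.22-fold lay outside every one of these intervals. With limma's moderated test across all genes and an adjusted p under 0.05 as the threshold, 2 of the 21 differences passed: Mef2c was higher with forskolin+AICAR than with forskolin, and Hdac9 was higher with forskolin+AICAR than in control. Both rises were of about 1.1-fold. The 3 comparisons share arrays and are therefore not independent. In RNA from whole cultures, fewer cells holding a transcript and less of it per cell cannot be told apart.

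**Figure D1:**
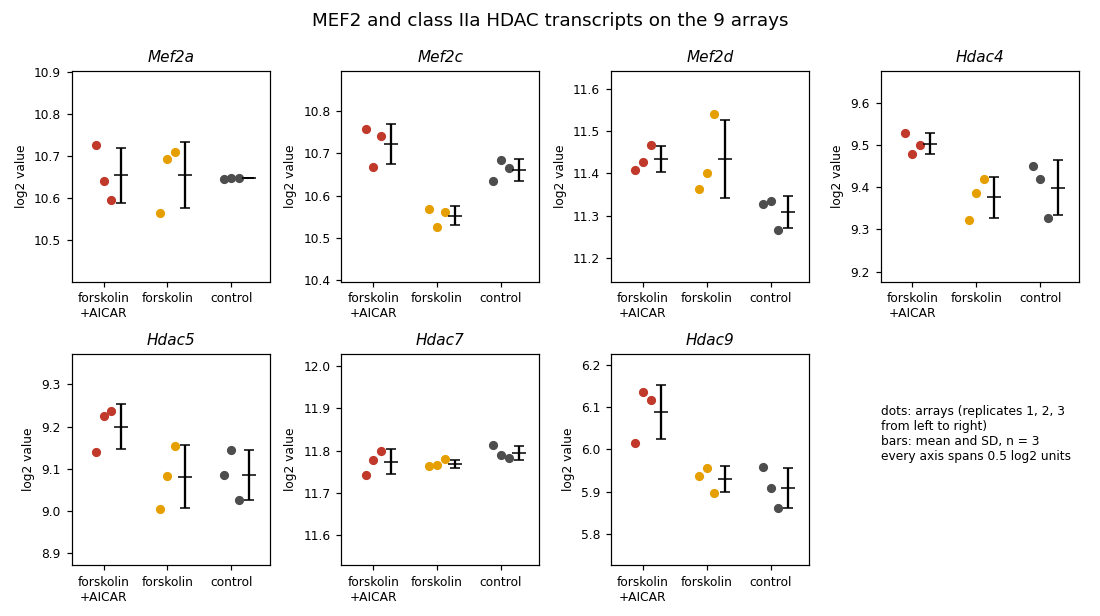
The deposited log2 value of each of the 7 genes on each of the 9 arrays, in 1 panel per gene whose axis spans 0.5 log2 units, with forskolin+AICAR on the left, forskolin in the middle and control on the right. Dots are arrays and bars show the mean and SD of 3. The forskolin dots of Mef2c lie below all its others, and the forskolin+AICAR dots of Hdac9 lie above all its others.

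Mef2a encodes the most widely expressed MEF2 factor. Its log2 values were 10.73, 10.64 and 10.60 with forskolin+AICAR, 10.57, 10.69 and 10.71 with forskolin, and 10.65 in each control array. The groups overlapped in all 3 comparisons, and the control arrays lay inside the spread of both treated groups. The log2 differences were 0.01 for forskolin against control (SE 0.05), 0.00 for forskolin+AICAR against forskolin and 0.01 for forskolin+AICAR against control, with limma adjusted p-values from 0.94 to 1.0.

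Mef2c encodes the MEF2 factor needed for heart development. Its log2 values were 10.76, 10.67 and 10.74 with forskolin+AICAR, 10.57, 10.53 and 10.56 with forskolin, and 10.63, 10.68 and 10.67 in control. All forskolin arrays were lower than all arrays of both other groups, which overlapped each other. Forskolin+AICAR stood 1.12-fold above forskolin (10.72 ± 0.05 against 10.55 ± 0.02, SD, n = 3; log2 difference 0.17, SE 0.04, limma adjusted p = 0.035). The forskolin level was lower than control by a log2 difference of −0.11 (SE 0.04), which did not pass (limma adjusted p = 0.47, unadjusted p = 0.018). Forskolin+AICAR and control differed by 0.06 (95% interval −0.02 to 0.15; limma adjusted p = 0.29). The AICAR call was kept without forskolin+AICAR replicate 1 or 2 and lost without any 1 of the other 7 arrays (limma adjusted p from 0.056 to 0.12), while the difference stayed between 0.15 and 0.20. With a replicate block, a pairing that the arrays did not bear out across all groups, limma's adjusted p was 0.096. Over all 20 alternatives limma's adjusted p ranged from 0.0084 to 0.21.

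Mef2d encodes a MEF2 factor found in many tissues, and here both treated groups lay above control. The arrays gave log2 values of 11.41, 11.43 and 11.47 with forskolin+AICAR, 11.36, 11.40 and 11.54 with forskolin, and 11.33, 11.34 and 11.27 in control. No control array reached a treated one, whereas both treated groups had the same mean of 11.43. The log2 difference from control was 0.125 both with forskolin+AICAR and with forskolin (SE 0.05 each), and neither passed (limma adjusted p = 0.13 and 0.60). The forskolin difference was 0.072 without forskolin replicate 3, the highest array. Between the treated groups the difference was 0.00 (95% interval −0.11 to 0.11). A dimmer probe of Mef2d, with means of 7.96, 8.03 and 8.004 in forskolin+AICAR, forskolin and control, did not show the rise (−0.04 for forskolin+AICAR and 0.03 for forskolin, each against control, SE 0.08).

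Mef2c and Mef2d were also set against each other within each array. The change in the difference between their log2 values was −0.23 for forskolin against control and 0.17 for forskolin+AICAR against forskolin. The groups did not overlap in either comparison. An exact two-sided permutation test gave p = 0.1 for each, the smallest p that 3 arrays against 3 can give. For forskolin+AICAR against control the change was −0.06 and the groups overlapped (exact permutation p = 0.3). This ratio was chosen after its values were seen, so neither these p-values nor the lack of overlap lend it weight. With forskolin, Mef2c lay wholly below control and Mef2d wholly above it, so their difference could not overlap. For forskolin+AICAR against forskolin, the change of 0.17 in the ratio repeats the Mef2c difference, as Mef2d differed by 0.00. The ratio used the brighter Mef2d probe, whereas the dimmer one differed by only 0.03 for forskolin against control.

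Hdac4 encodes a class IIa deacetylase known as a repressor of MEF2 in bone and muscle. On the log2 scale it read 9.53, 9.48 and 9.50 with forskolin+AICAR, 9.32, 9.39 and 9.42 with forskolin, and 9.45, 9.42 and 9.33 in control. The forskolin+AICAR arrays were above all others, and forskolin and control overlapped. The log2 difference of forskolin+AICAR was 0.13 from forskolin (SE 0.04, limma adjusted p = 0.14) and 0.10 from control (SE 0.04, limma adjusted p = 0.15). Both passed after quantile normalization (0.177 and 0.168, limma adjusted p = 0.047 and 0.049), and array weights also called the difference from forskolin (0.111, limma adjusted p = 0.038). With array weights 5729 of all 19938 genes were called against forskolin, where 1017 were called as reported. The weights were 0.354, 2.844 and 0.318 for forskolin+AICAR replicates 1, 2 and 3, so the weighted mean of that group rested mostly on replicate 2. Without control replicate 3 the difference from control was 0.068. A dimmer probe of Hdac4 gave 0.13 from forskolin (SE 0.05) and 0.03 from control, since its forskolin mean of 8.99 was below its control mean of 9.09.

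Hdac5 encodes a close relative of Hdac4 that restrains MEF2 in heart. Its log2 values were 9.14, 9.22 and 9.24 with forskolin+AICAR, 9.005, 9.08 and 9.15 with forskolin, and 9.09, 9.14 and 9.03 in control. The forskolin+AICAR arrays were mostly the highest, but replicate 1 lay inside the range of both other groups. The log2 difference was 0.12 from forskolin (SE 0.05, limma adjusted p = 0.20) and 0.12 from control (SE 0.05, limma adjusted p = 0.16). After quantile normalization they were 0.182 and 0.191, of which the difference from control passed (limma adjusted p = 0.064 and 0.048). Array weights called the difference from forskolin (0.145, limma adjusted p = 0.023), but with them 5729 of all 19938 genes were called in this comparison, against 1017 as reported. The weighted forskolin+AICAR mean rested mostly on replicate 2, as for Hdac4.

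Hdac7, which is known for its role in blood vessels and thymocytes, was the steadiest of the 7. Its log2 values were 11.74, 11.78 and 11.80 with forskolin+AICAR, 11.76, 11.77 and 11.78 with forskolin, and 11.81, 11.79 and 11.78 in control. The whole range over 9 arrays was 0.07, and 1.6% of all genes had a smaller one. No difference exceeded 0.03 in size, and limma's adjusted p-values were 0.68 to 0.94. For the other 6 genes the range was 0.16 to 0.27, against a median of 0.27 over all genes.

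Hdac9 encodes a class IIa deacetylase, and the gene is itself a known target of MEF2. Its probe was dim, with 24.1% of all genes lower on average, and no detection call was used here, so whether it lies above background is not known. On the arrays it measured 6.02, 6.13 and 6.12 with forskolin+AICAR, 5.94, 5.96 and 5.90 with forskolin, and 5.96, 5.91 and 5.86 in control. Every forskolin+AICAR array was above every other array, and forskolin and control overlapped. Forskolin+AICAR stood 1.13-fold above control (6.09 ± 0.06 against 5.91 ± 0.05, SD, n = 3; log2 difference 0.18, SE 0.04, limma adjusted p = 0.040). The difference from forskolin, 0.16 (SE 0.04), did not pass (limma adjusted p = 0.077). It passed without forskolin+AICAR replicate 1 (0.196, limma adjusted p = 0.021) and with array weights (0.176, limma adjusted p = 0.0052), and was 0.081 after quantile normalization. The fit without that array called 3324 of all 19938 genes and the one with weights 5729, against 1017 as reported. With weights the forskolin+AICAR mean rested mostly on replicate 2, as for Hdac4. The call against control was kept without forskolin replicate 3 or forskolin+AICAR replicate 1 and lost without any 1 of the other 7 arrays (limma adjusted p from 0.054 to 0.14). With the same replicate block as for Mef2c, limma's adjusted p was 0.088. After quantile normalization, which removes differences in spread between arrays such as those given above, the difference was 0.08 (limma adjusted p = 0.19, within a range of 0.0032 to 0.24 over all 20 alternatives).

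**Figure D2:**
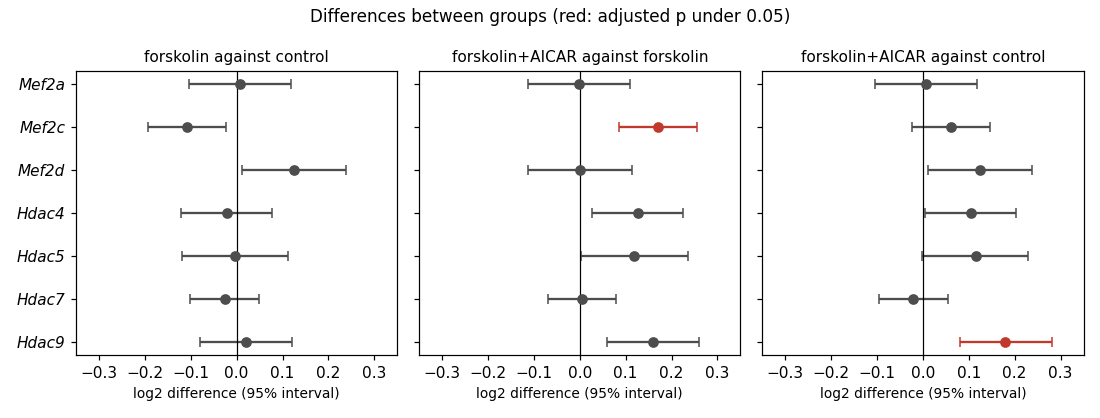
Log2 differences (horizontal axis) of the 7 genes with their 95% intervals, for forskolin against control, forskolin+AICAR against forskolin and forskolin+AICAR against control. Red marks an adjusted p under 0.05. All points lie between −0.11 and 0.18, and the red ones are Mef2c in the middle panel and Hdac9 in the right panel.

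Forskolin alone changed none of the 7 genes at the threshold, with limma calling 0.692% of all genes in this comparison (138, with 99 higher, 0.497%, and 39 lower) and with 2 of the 7 (Mef2c and Mef2d) at an unadjusted p under 0.05, against 7.27% of all genes. The median difference of the 7 was 0.00, as over all genes. Forskolin and control arrays did not overlap in 3 of the 7, Mef2d above (as for 6.85% of all genes) and Mef2c and Hdac7 below (as for 7.13%).

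Adding AICAR to forskolin changed 1 of the 7, Mef2c, where limma called 5.10% of all genes (1017, with 195 higher and 822 lower, 4.12%). Most calls were thus lower, but the split depended on the fit: quantile normalization gave 389 higher and 766 lower, array weights 3075 and 2654, and leaving out forskolin+AICAR replicate 1 gave 1677 and 1647. The median difference of the 7 was 0.12, against 0.02 over all genes, and 4 of them (Mef2c, Hdac4, Hdac5 and Hdac9) had an unadjusted p under 0.05, against 24.1% of all genes. The forskolin+AICAR arrays did not overlap the forskolin arrays for Mef2c, Hdac4 and Hdac9, all above, as for 11.5% of all genes, while 12.2% lay wholly below. Limma called 0 of the 28 markers of other cell types higher and 2 (Sox9 and Cd68) lower in this comparison.

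Forskolin+AICAR against control also changed 1 of the 7, Hdac9, where limma called 8.72% of all genes (1739, with 606 higher, 3.04%, and 1133 lower, 5.68%). Here too the split turned, to 3578 higher and 3041 lower with array weights and to 2675 and 2066 without forskolin+AICAR replicate 1. The median difference of the 7 was 0.10, against 0.03 over all genes, and Mef2d, Hdac4 and Hdac9 had an unadjusted p under 0.05, against 31.1% of all genes. The same 3 did not overlap control and lay above it, as did 15.2% of all genes (29.5% in either direction). Of the 28 markers of other cell types 3 were called higher and 2 lower, and their part in these results was not tested.

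**Figure D3:**
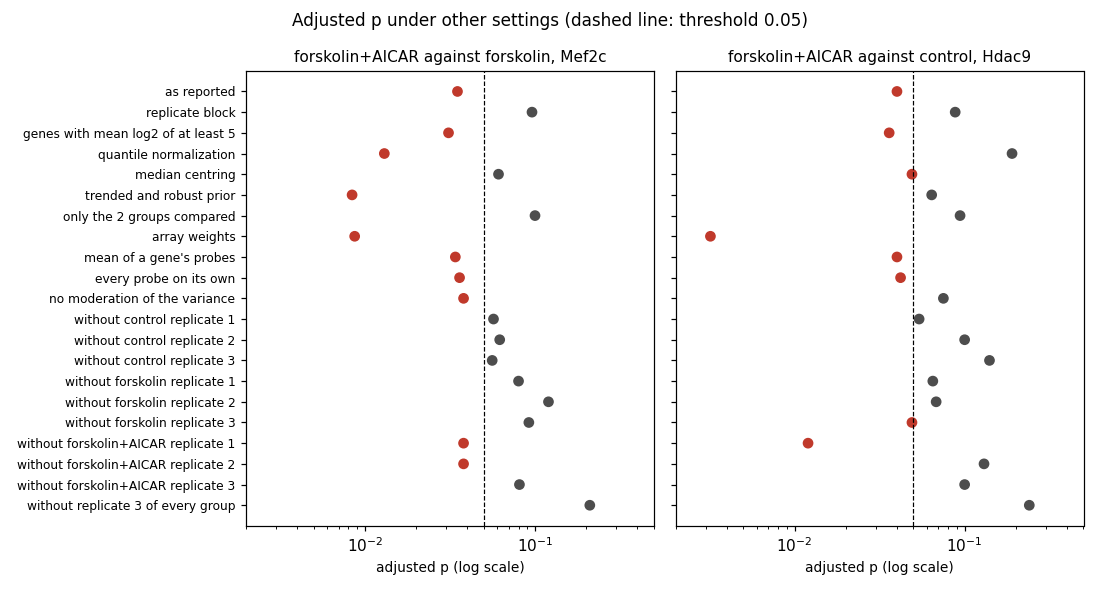
Limma's adjusted p (log axis) of both differences that passed, Mef2c in forskolin+AICAR against forskolin and Hdac9 in forskolin+AICAR against control, as reported and under 20 other settings. The dashed line is the threshold of 0.05, and red dots pass it. Mef2c passes in 9 of the 20 alternatives and Hdac9 in 7.

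Genes that act on the 7 were read from lists drawn up by name. Of 22 measured kinases that phosphorylate class IIa deacetylases, or activate such kinases, 1 rose with forskolin and 21 did not pass. The one was Sik1, a salt-inducible kinase gene induced by cAMP (10.51 ± 0.09 with forskolin and 7.92 ± 0.10 in control; log2 difference 2.595, 6.04-fold, SE 0.065), and it stayed as high with AICAR (10.49 ± 0.07). With AICAR against forskolin, Prkaa1, a catalytic AMPK subunit, fell (−0.24, SE 0.05, limma adjusted p = 0.034) and 21 did not pass. Against control, forskolin+AICAR had 2 kinases higher, Sik1 and the calmodulin kinase gene Camk2a (0.16), and 2 lower, Prkaa1 (−0.24) and the polarity kinase gene Mark2 (−0.20). Over all genes, limma called 0.497% higher in forskolin against control and 4.12% lower in forskolin+AICAR against forskolin. In forskolin+AICAR against control it called 3.04% higher and 5.68% lower. The call of Prkaa1 against forskolin was lost without any 1 array but forskolin+AICAR replicate 1 (limma adjusted p up to 0.12), and those of Camk2a and Mark2 without any 1 array but forskolin replicate 3 or forskolin+AICAR replicate 1 (up to 0.11). Against control, Prkaa1 lost its call without any control array or forskolin+AICAR replicate 2 or 3 (up to 0.087). After quantile normalization Camk2a differed by 0.05, and the mean of the Mark2 probes gave −0.08.

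None of 7 genes for 14-3-3 proteins passed limma's test in any comparison, with 1, 2 and 3 at an unadjusted p under 0.05, and the one nearest to a call was Ywhag in forskolin+AICAR against control (−0.12, limma adjusted p = 0.050). Over all genes, 7.27% had an unadjusted p under 0.05 in forskolin against control. The share was 24.1% in forskolin+AICAR against forskolin and 31.1% in forskolin+AICAR against control. Of 11 genes of phosphatases that act on class IIa deacetylases or MEF2, and of their regulators, none passed with forskolin (none also at an unadjusted p under 0.05). Rcan1, an inhibitor of the phosphatase calcineurin, fell with forskolin+AICAR (−0.28 against forskolin and −0.30 against control, SE 0.05 each). Against forskolin it lost its call without forskolin replicate 2 or 3 or forskolin+AICAR replicate 2 (limma adjusted p up to 0.064). Of 11 corepressor partners, Tbl1xr1, a subunit of the Hdac3 complex, rose with forskolin+AICAR against forskolin (0.19, SE 0.04) and 10 did not pass, and its forskolin level was lower than control by a difference that did not pass (−0.13, limma adjusted p = 0.37). Of 16 MAP kinases and coactivators that activate MEF2, Mapk7, the kinase ERK5, fell with forskolin+AICAR against forskolin (−0.20, SE 0.05, limma adjusted p = 0.048) and 15 did not pass. In the other comparisons limma called none of the corepressors (1 at an unadjusted p under 0.05 with forskolin and 3 with forskolin+AICAR, each against control), nor of these activators (1 and 4). Tbl1xr1 lost its call without control replicate 2, forskolin replicate 1 or 3, or forskolin+AICAR replicate 2 or 3 (limma adjusted p up to 0.088), and Mapk7 without any 1 array but forskolin+AICAR replicate 3 (up to 0.14). The medians of these 4 groups of genes lay between −0.06 and 0.03 in all 3 comparisons, and over all genes between 0.00 and 0.03.

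Of 24 measured genes known as MEF2 targets, 5 rose with forskolin (0.497% of all genes were called higher) and 19 did not pass: Nr4a1, Nr4a3, Star, Klf4 and Jun, with log2 differences of 2.64, 2.34, 1.89, 1.08 and 0.61. These include targets of other cAMP-responsive factors, and the list was chosen with results of these data known. The same 5 fell with forskolin+AICAR against forskolin (−0.46, −1.02, −2.05, −0.79 and −0.81), and the other 19 did not pass (4.12% of all genes were called lower). Against control, forskolin+AICAR left Nr4a1 (2.18) and Nr4a3 (1.32) higher, beside Hdac9 and the muscle factor gene Myog (0.20), and the glutathione transferase gene Gsta3 (−0.28) lower. In this comparison 3.04% of all genes were called higher and 5.68% lower. Myog and Gsta3 lost their calls without any 1 of 7 arrays (limma adjusted p up to 0.13 and 0.14); the exceptions were control replicate 3 and forskolin+AICAR replicate 1 for Myog, and forskolin replicate 3 and forskolin+AICAR replicate 1 for Gsta3. After quantile normalization Myog differed by 0.10. The median of the 24 was 0.03 for forskolin against control, 0.02 for forskolin+AICAR against forskolin and 0.08 for forskolin+AICAR against control. Among the genes with a MEF2 match in their promoter window, Jun differed by 0.61 with forskolin and passed. Hdac5 (0.00), Mef2a (0.01), Klf2 (0.03) and Xirp2 (−0.18) did not pass. Whether the match has a part in these differences was not tested.

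**Figure D4:**
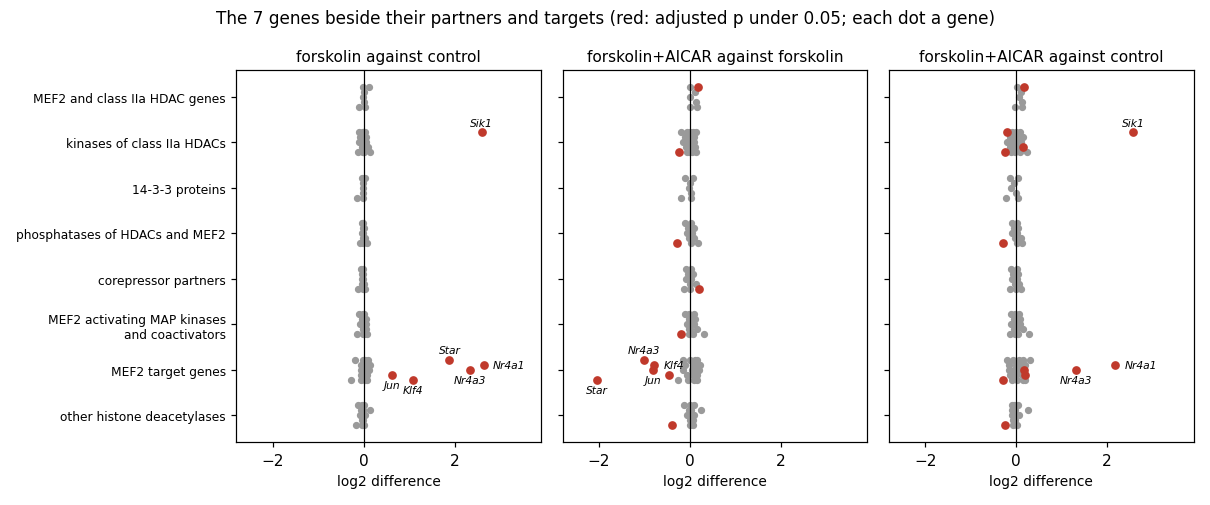
Log2 differences (horizontal axis) of the 7 genes, in the top row, beside lists of kinases, 14-3-3 proteins, phosphatases, corepressor partners, MEF2 activators, MEF2 targets and other histone deacetylases, for the 3 comparisons. Each dot is a gene, red marks an adjusted p under 0.05, and genes that passed with a difference over 0.5 in size carry their names. Hdac9 is both in the top row and among the MEF2 targets. The named dots, Sik1 and 5 MEF2 targets, stand far outside the range of the 7 genes.

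The genes whose pattern over the 9 arrays was most like that of Mef2c were Lin52, a subunit of a cell cycle repressor complex, Maf1, a repressor of RNA polymerase III, and Ndufa4l2, a mitochondrial protein gene known to respond to hypoxia. After each gene was centred on its own mean, their log2 values differed from those of Mef2c by 0.02 (root mean square over 9 arrays), against a median of 0.11 over all genes. Those most like Hdac9 were the transcription factor gene Zic1, the kinase gene Stk32b and the collagen gene Col13a1, also at 0.02, against a median of 0.10. Of these 6, limma called Ndufa4l2 in forskolin+AICAR against forskolin (0.16, adjusted p = 0.032), and Zic1 (0.21, adjusted p = 0.023) and Col13a1 (0.22, adjusted p = 0.027) in forskolin+AICAR against control. The 6 were chosen for their closeness to called genes on the same arrays. Their calls follow in part from that choice and are no separate evidence.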

How the data were processed

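Gene expression was measured on 9 Affymetrix whole-transcript arrays, 3 per group. The deposited values are log2 summaries per probe, made by the authors with RMA and Partek per the submitters' processing notes, which give no versions; the genome build is not given in the sources used here. RMA in its usual form equalises the arrays' distributions, so a change shared by most transcripts would be removed.

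Of 35557 probes, 21789 carried 1 gene symbol in the platform annotation, 1621 several (among them the one for Mef2b, which was not used) and 12147 none listed. The brightest probe on average over 9 arrays stood for each of 999 genes with several, which left 19938 genes, none filtered out. Of these, 19856 matched the RefSeq gene table by Entrez identifier, with no symbol differing.

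One linear model over all 9 arrays was fitted with limma 3.58.1 in R 4.3.3, and its moderated test, two-sided, had its p-values adjusted within each comparison across all genes (Benjamini-Hochberg). Intervals are 95% intervals of the same fit. The test was also run on simulated data with known changes, in forskolin against control only. Those changes were larger than any difference of the MEF2 and class IIa deacetylase genes, so the check does not cover differences of their size. Tables were made with pandas 2.3.3 and figures with matplotlib 3.10.9.

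The genes and lists were chosen with earlier results of these data known. The genes named are the 7 genes, in each list and comparison the 4 called genes at most that changed most (or, without any call, the gene of lowest p), and the 3 genes nearest in pattern to each gene called (unnamed and predicted transcripts, olfactory receptors and histones passed over). A few others complete counts. Listed genes without a probe of their own, such as Camkk1, Gsta1 and Gsta2, are not in the counts. The alternatives were a replicate block, a filter that kept genes averaging 5 or more on the log2 scale, quantile normalization, median centring, a trended robust prior, fits of only the groups compared, array weights, the mean of a gene's probes or every probe, no moderation, each array left out in turn, and replicate 3 of every group left out.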

Additional observations from a re-analysis of the deposited data

How the results depend on the processing

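Each of the 21 differences was recomputed under 20 alternatives, and 360 of 420 recomputed values kept both direction and side of the threshold. Many alternatives could change the p-value but not the difference. Among them were the replicate block, the filter, the trended prior, no moderation and leaving out an array of the group not compared. The count is therefore no measure of how stable the directions were. The direction turned in 29 of the recomputed values, none larger than 0.054 in size (limma adjusted p of 0.68 or more). For forskolin against control these were Mef2a with median centring (−0.018) and without replicate 3 of every group (−0.019), Hdac5 with quantile normalization (0.009) and Hdac9 with quantile normalization or median centring (−0.005 each). For forskolin+AICAR against forskolin they were Mef2a with quantile normalization (0.018) and without replicate 3 of every group (0.054), Mef2d with median centring (−0.004) and with the mean of its probes (−0.036), and Hdac7 without replicate 3 (−0.003). For forskolin+AICAR against control they were Mef2a with median centring (−0.024) and array weights (−0.003) and Hdac7 with quantile normalization (0.004). The rest came from leaving out single arrays, over which forskolin against control ranged from −0.019 to 0.053 for Mef2a, −0.059 to 0.004 for Hdac4, −0.041 to 0.034 for Hdac5 and −0.004 to 0.045 for Hdac9. Forskolin+AICAR against forskolin ranged from −0.047 to 0.027 for Mef2a, −0.035 to 0.053 for Mef2d, −0.008 to 0.020 for Hdac7, 0.152 to 0.197 for Mef2c and 0.137 to 0.196 for Hdac9, the last passing without forskolin+AICAR replicate 1. Forskolin+AICAR against control ranged from −0.030 to 0.035 for Mef2a and 0.156 to 0.217 for Hdac9.

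Mef2c in forskolin+AICAR against forskolin was not called with a replicate block (0.170), median centring (0.166), only the 2 groups compared (0.170) or without replicate 3 of every group (0.165). Hdac9 in forskolin+AICAR against control was not called with a replicate block, a trended robust prior, only the 2 groups or no moderation (0.180 each), quantile normalization (0.076) or without replicate 3 of every group (0.142). Calls appeared with array weights for Hdac4 (0.111), Hdac5 (0.145) and Hdac9 (0.176) in forskolin+AICAR against forskolin, and with quantile normalization for Hdac4 (0.177) in that comparison and Hdac4 (0.168) and Hdac5 (0.191) against control. The causes were not tested.

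The numbers of changed genes in forskolin against control, forskolin+AICAR against forskolin and forskolin+AICAR against control were 138, 1017 and 1739 as reported. They were 83, 583 and 874 with a replicate block, 436, 5729 and 6619 with array weights, 72, 544 and 735 with no moderation, and 43, 241 and 377 without replicate 3 of every group. Array weights turned the split of calls to 212 higher and 224 lower in forskolin against control, which had 99 and 39 as reported. With only the 2 groups compared they were 496 in forskolin+AICAR against forskolin and 758 in forskolin+AICAR against control. Leaving out single arrays gave 76 to 144, 487 to 3324 and 660 to 4741. The replicate numbers did not pair the arrays across all groups. Deviations of same-numbered arrays from their group means correlated across genes at 0.24, 0.01 and 0.33 between forskolin and control (replicates 1, 2 and 3). Between forskolin+AICAR and either other group they correlated at −0.41 to 0.08. Forskolin+AICAR replicate 1 correlated best with replicate 3 of control (0.49) and of forskolin (0.45). Forskolin+AICAR replicate 3 correlated best with replicate 1 of control (0.275) and of forskolin (0.306). The replicate block thus joined these arrays to unlike ones, and its results do not show what a true pairing would give. With 3 arrays a group, differences of the size seen here lie near the limit of what could be called.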

Other observations

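Of 14 histone deacetylase genes outside class IIa (classes I, IIb and IV and the sirtuins), limma called none with forskolin (2 at an unadjusted p under 0.05, against 7.27% of all genes). The nearest was the mitochondrial sirtuin gene Sirt4 (log2 difference −0.18, SE 0.05, limma adjusted p = 0.27). Sirt1, which encodes a nuclear NAD-dependent deacetylase, was the one called with AICAR (5.10% of all genes were called against forskolin and 8.72% against control). Its log2 values were 9.07, 8.88 and 8.91 with forskolin+AICAR, 9.24, 9.34 and 9.45 with forskolin, and 9.19, 9.21 and 9.20 in control. The forskolin+AICAR arrays lay below all others. It fell against forskolin (−0.39, SE 0.06, limma adjusted p = 0.0081), and this call was kept without any 1 array. It was lost in 2 of the 20 alternatives, with no moderation of the variance (adjusted p = 0.052) and without replicate 3 of every group (−0.31, limma adjusted p = 0.15). It also fell against control (−0.24, limma adjusted p = 0.047), but that call was lost without any control array, forskolin replicate 2 or forskolin+AICAR replicate 2 or 3 (up to 0.15). The median of the 14 genes was −0.03 for forskolin against control, 0.01 for forskolin+AICAR against forskolin and −0.04 for forskolin+AICAR against control.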
